A study of Arabidopsis thaliana with 10 samples.

Results

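Salicylate is a defence hormone of plants, and the 6 genes described here stand at different points of its pathway: *ICS1* in synthesis, *EDS1* and *SAG101* upstream in immune signalling, *GRX480* and *PR2* among the genes that salicylate switches on, and *BSMT1* in methylation. They are given by name, by a rule that uses no measured value, although earlier results of these data were known when they were chosen, and are represented by 6 of the 22810 probe sets of the Affymetrix ATH1 array. Their signal was followed on 10 arrays of leaf RNA from 21-day-old *Arabidopsis thaliana* plants grown in MS medium, with 1 array for each of 2 genotypes in each of 5 conditions. The genotypes were Ri17, which carries an RNA interference construct against *JAV1*, and the wild type Col-0. For each genotype the conditions were untreated, 1 h and 4 h of 100 µM methyl jasmonate (MeJA), and 30 min and 60 min after wounding, for which 4 rosette leaves were crushed with forceps and about 30% of each leaf was damaged. Ri17 is 1 RNA interference line, so a difference from Col-0 cannot be told apart from a property of that line. The labels give no separate medium-only control for MeJA, and MeJA and wounding share the same 2 untreated arrays. *JAV1* itself was not analysed here, so the knockdown was not checked on these arrays.

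Salicylate is made from chorismate through isochorismate, and to a smaller part from phenylalanine. Immune receptors act through EDS1, a lipase-like protein that pairs with PAD4 or SAG101, and this leads to *ICS1* expression. The hormone is then perceived through NPR1 proteins, which act with TGA transcription factors on defence genes such as *PR2*, while methyl and glucosyl transferases turn salicylate into volatile or stored forms. Jasmonate, the wound and herbivory hormone applied here as its methyl ester, is known to act against this pathway in leaves, and *JAV1* encodes a VQ-motif protein that restrains jasmonate-dependent defence.

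A signal is the authors' intensity for a probe set, and a detection call (Present, Marginal or Absent) says whether it stood above mismatch background. Before log2 values were taken, signals were raised to a floor of 37.7, below which 75% of the signals with an Absent call lay. The 15382 probe sets with a Present call on 2 or more arrays were tested. All 6 genes passed this filter. *ICS1*, *SAG101* and *GRX480* were called Present on all 10 arrays and *EDS1* on 8. *PR2*, on 6, and *BSMT1*, on 7, passed it through the arrays on which they were high, so that their part in the counts below is a description. The same holds for the other genes of the pathway named below that were Absent throughout a condition, such as *EDS1B* and *UGT76B1*. A treatment effect is a log2 difference ± standard error from limma over all 10 arrays, with genotype and condition as additive terms, and was called where its Benjamini-Hochberg adjusted p was under 0.05. With 1 array for each genotype in each condition, this error holds array noise together with any difference between the genotypes in their response, and comparisons of single arrays carry no test. The number of arrays limits the precision. In these leaf samples, fewer cells of a type and less RNA per cell cannot be told apart.

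The median signal of an array was 121.5 to 133.4, and 56.8% to 60.9% of its probe sets had a Present call. The 4 MeJA arrays stood apart from the other 6 in control probe sets that do not measure plant genes: in 17 of 27 poly-A controls and 6 of 18 hybridisation controls all 4 lay on 1 side. Over all 27 and all 18 the median log2 difference, MeJA minus other arrays, was 0.53 and -0.38. Of 8 leaf markers 2 had a named probe set, *RCA* and *PRK*, both Present on all 10 arrays, and their summed signal was 23865.1 to 44295.9 on MeJA arrays, 31341.1 to 54976.6 on wounded arrays and 49248.0 to 52753.9 on untreated arrays. Of 8 root markers 2 had a named probe set: *EXPA7* was Present on 0 arrays, while *PYK10* brought the summed signal to 916.3 to 2464.2 on MeJA arrays, against 65.7 to 248.0 on wounded and 67.5 to 117.3 on untreated arrays. The 3′ over 5′ signal ratio of *GAPDH*, a sign of RNA quality, was 2.04 to 2.45 on MeJA arrays, 1.89 to 2.67 on wounded arrays and 1.94 to 1.95 on untreated arrays. That of actin was 9.70 to 10.7 on MeJA arrays, all below the 11.5 to 12.7 on untreated arrays, and 7.52 to 13.2 on wounded arrays. The part of these differences in the MeJA results below was not tested.

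The first question was how exogenous jasmonate moved these genes. At 1 h of MeJA, *EDS1*, *SAG101* and *PR2* fell and *BSMT1* rose, so that 3 of 6 were called lower and 1 higher, beside 15.8% and 15.7% of the 15382 probe sets. At 4 h the same 3 were called lower and *BSMT1* and *GRX480* higher, beside 18.7% lower and 18.8% higher over all probe sets. *ICS1* lay lower than untreated in both genotypes at both times without passing the threshold. The median difference over the 6 genes was -1.67 at 1 h and -1.80 at 4 h, beside 0.01 and 0.00 over all probe sets. *BSMT1* passed from Absent on both untreated arrays to Present on all 4 MeJA arrays, and *PR2* did the opposite.

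The second question was how wounding, which raises the plant's own jasmonate, moved them. *GRX480* rose at 30 min and at 60 min, and *BSMT1* rose at 60 min. That was 1 of 6 called higher at 30 min, beside 9.63% of all probe sets, and 2 of 6 at 60 min, beside 12.1%. None of the 6 was called lower at either time, beside 10.5% and 16.1%. The median over the 6 genes was 0.47 at 30 min and 1.26 at 60 min, beside -0.08 and -0.14 over all probe sets. The averages over both genotypes covered unlike responses, none of which can be tested on its own. In Ri17 *ICS1*, *EDS1*, *SAG101* and *PR2* lay above untreated at both times. In Col-0 *ICS1* and *EDS1* lay below untreated at 30 min and above it at 60 min, while *SAG101* and *PR2* lay below it at both.

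**Figure D1:**
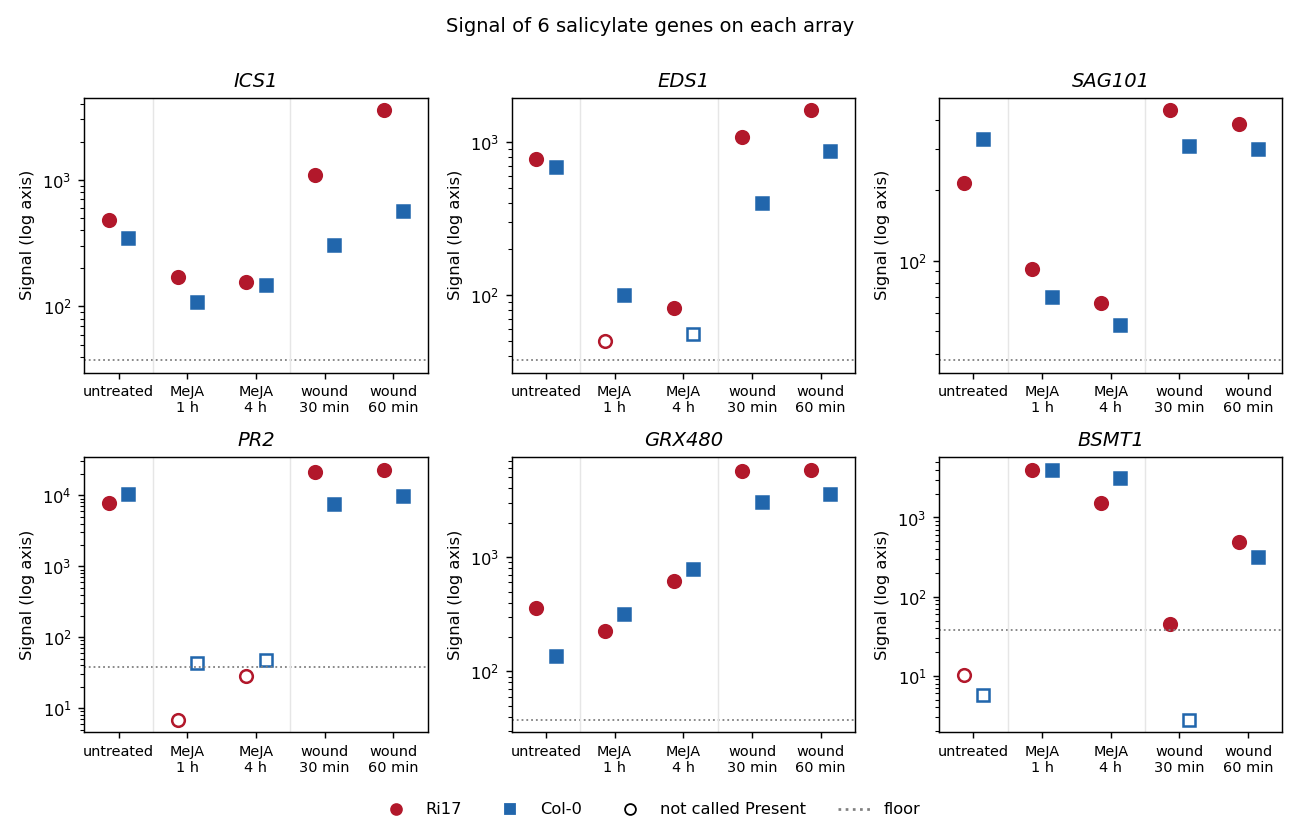
Signal (log axis) of the 6 genes on each of the 10 arrays, with Ri17 as circles left of Col-0 as squares; open symbols were not called Present and the dotted line is the floor of 37.7. *PR2* left detection on all 4 MeJA arrays, *BSMT1* was Present on all 4, and each of the 6 genes was higher in Ri17 than in Col-0 at 30 min and at 60 min after wounding.

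*ICS1* encodes isochorismate synthase, the enzyme of the main route to salicylate. In Ri17 its signal was 485.1 untreated, 169.6 at 1 h and 155.2 at 4 h of MeJA. In Col-0 it was 347 untreated, 107.7 at 1 h and 147.4 at 4 h. The MeJA arrays lay below both untreated arrays with no overlap, yet the differences, -1.60 ± 0.58 at 1 h (adjusted p = 0.0749) and -1.44 ± 0.58 at 4 h (adjusted p = 0.0923), missed the threshold. With the MeJA and untreated arrays fitted alone both passed (adjusted p = 0.0122 and 0.0125). Leaving out either array at 60 min after wounding left the differences at -1.60 and -1.44. Either omission takes the same pair of arrays out of the error, so the 2 omissions are 1 check.

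After wounding *ICS1* had a signal of 1083.5 at 30 min and 3551.1 at 60 min in Ri17, against 485.1 untreated. In Col-0 it had 307.7 at 30 min and 571.5 at 60 min, against 347 untreated. The genotypes parted after wounding: within Ri17 *ICS1* was higher than untreated by 1.16 at 30 min and 2.87 at 60 min on the log2 scale, and within Col-0 by -0.17 and 0.72. Averaged over the genotypes the difference was 0.49 ± 0.58 at 30 min (adjusted p = 0.614), where the groups overlapped, and 1.80 ± 0.58 at 60 min (adjusted p = 0.0573), where both wounded arrays lay above both untreated ones. Without the Col-0 array at 60 min the value at 60 min was 2.74 (adjusted p = 0.0141).

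Of the other genes of synthesis, 5 had a named and tested probe set: 4 for phenylalanine ammonia-lyase, which opens the phenylalanine route, and 1 described as a putative isochorismate synthase. *PAL1* fell by 2.16 ± 0.39 at 1 h (adjusted p = 0.0058) and by 1.94 ± 0.39 at 4 h of MeJA (adjusted p = 0.00758), with signals of 537.5 and 559.9 in Ri17, against 3739.7 untreated, and 629.7 and 825.6 in Col-0, against 1817.1 untreated. The MeJA and untreated arrays did not overlap. A putative phenylalanine ammonia-lyase, Absent on both arrays at 4 h and on the untreated Col-0 array, fell by at least 1.60 there (adjusted p = 0.03). After wounding *PAL3* fell by 0.93 ± 0.23 at 60 min (adjusted p = 0.0229), and no other gene of this group was called at either time. Between 30 and 60 min *PAL1* (1.91 ± 0.39, adjusted p = 0.0434) and the fourth phenylalanine ammonia-lyase (1.17 ± 0.22, adjusted p = 0.0382) were higher at the later time and *PAL3* was lower (-1.45 ± 0.23, adjusted p = 0.0261). The putative isochorismate synthase was not called in any of these contrasts, and *PBS3* and *EDS5*, which carry later steps of the isochorismate route, were not analysed here.

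*EDS1* was among the genes that MeJA lowered. In Ri17 its signal was 780.6 untreated, 49.9 with an Absent call at 1 h, and 82.4 at 4 h of MeJA. In Col-0 it was 684.4 untreated, 100.8 at 1 h, and 56.1 with an Absent call at 4 h. The MeJA arrays lay far below the untreated ones in both genotypes, and *EDS1* fell by 3.37 ± 0.51 at 1 h (adjusted p = 0.00299) and by 3.43 ± 0.51 at 4 h (adjusted p = 0.00218), with 1 of the 2 MeJA arrays at each time Absent. The size at 1 h rested on single arrays: it was -4.26 without the Col-0 array and -2.47 without the Ri17 array at 1 h, and was called in each case.

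After wounding *EDS1* had 1085.8 at 30 min and 1616.9 at 60 min in Ri17, against 780.6 untreated, and 398.8 and 869.4 in Col-0, against 684.4 untreated. At 30 min the Ri17 array lay above and the Col-0 array below both untreated arrays, and the average difference was -0.15 ± 0.51 (adjusted p = 0.878). At 60 min both wounded arrays lay above both untreated arrays, with 0.70 ± 0.51 (adjusted p = 0.36). The neighbouring gene *EDS1B* (AT3G48080) is nearly identical to *EDS1*, and whether each probe set reads transcripts of both is uncertain. *EDS1B*, which passed the filter through untreated and wounded arrays, was Absent on all 4 MeJA arrays and fell there by at least 2.21 at both times (adjusted p = 0.0103 and 0.00872). After wounding it had 151.8 at 30 min and 319.2 at 60 min in Ri17, against 198 untreated, and 65.1 and 89.3 in Col-0, against 154.6 untreated.

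*SAG101* (AT5G14930), the lipase-like partner of *EDS1* first known from senescing leaves, was also lowered by MeJA. In Ri17 it had 214 untreated, 91.8 at 1 h and 66.3 at 4 h of MeJA. In Col-0 it had 330.9 untreated, 69.9 at 1 h and 53.4 at 4 h. The 4 MeJA arrays lay below both untreated arrays, and *SAG101* fell by 1.73 ± 0.29 at 1 h (adjusted p = 0.00448) and by 2.16 ± 0.29 at 4 h (adjusted p = 0.00139). After wounding it had 439 at 30 min and 382.5 at 60 min in Ri17, against 214 untreated, and 307.5 and 300.7 in Col-0, against 330.9 untreated. The wounded arrays overlapped the untreated ones, and the differences of 0.47 ± 0.29 at 30 min (adjusted p = 0.317) and 0.35 ± 0.29 at 60 min (adjusted p = 0.42) were not called. They turned on the untreated arrays: without the Col-0 one they were 0.98 and 0.86 (adjusted p = 0.0253 at both times), and without the Ri17 one -0.045 and -0.16. *PAD4*, the other partner of *EDS1*, was not analysed here.

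*GRX480* (AT1G28480) encodes a glutaredoxin that binds TGA factors and is induced by salicylate. It was called higher at 4 h of MeJA and at both times after wounding. In Ri17 it had 357.4 untreated, 223.6 at 1 h and 620.5 at 4 h of MeJA. In Col-0 it had 136.2 untreated, 316.8 at 1 h and 786.7 at 4 h. At 1 h both MeJA arrays lay between the 2 untreated arrays (0.27 ± 0.46, adjusted p = 0.699), and at 4 h both lay above them (1.66 ± 0.46, adjusted p = 0.0268). The call did not hold without the untreated Col-0 array (1.06, adjusted p = 0.167), without the Col-0 array at 4 h (1.18, adjusted p = 0.192), with the MeJA and untreated arrays alone (adjusted p = 0.0826), with no detection filter (adjusted p = 0.115) and with a higher floor of 60.9 (adjusted p = 0.0555), while the value was 2.26 without the untreated Ri17 array.

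After wounding *GRX480* had 5635.5 at 30 min and 5830.4 at 60 min in Ri17, against 357.4 untreated. In Col-0 it had 3022.9 at 30 min and 3549.4 at 60 min, against 136.2 untreated. Each wounded array lay above every untreated and every MeJA array. *GRX480* rose by 4.23 ± 0.46 at 30 min (adjusted p = 0.00102), which is 18.7-fold, and by 4.37 ± 0.46 at 60 min (adjusted p = 5.81e-04), which is 20.6-fold. Without the untreated Col-0 array these were 3.63 and 3.77, and without the untreated Ri17 array 4.83 and 4.97, called in each case.

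The other genes of perception and transcription with a tested probe set were 7: 3 described as NPR1-like, 2 as TGACG-binding, 1 as a TGA1a homolog, and *WRKY53*, a transcription factor of leaf senescence and defence. Of these, 1 was called higher and 2 lower at 1 h of MeJA, beside 15.7% and 15.8% of all probe sets. At 4 h it was 1 in each direction, beside 18.8% higher and 18.7% lower. After wounding, 2 were called higher at each time, beside 9.63% at 30 min and 12.1% at 60 min. Called lower were 1 at 30 min, beside 10.5%, and none at 60 min, beside 16.1%. *WRKY53* fell by at least 4.08 at 1 h of MeJA (adjusted p = 0.00285), where its Col-0 array was under the floor, and by 3.84 ± 0.61 at 4 h (adjusted p = 0.0029), and rose by 2.60 ± 0.61 at 30 min after wounding (adjusted p = 0.0246). Its signals were 46.5 and 59.7 in Ri17 at 1 h and 4 h of MeJA and 31.3 and 40.8, both Absent, in Col-0, against 545 in untreated Ri17 and 920.8 in untreated Col-0. At 30 min after wounding it had 4462.8 in Ri17 and 4141.3 in Col-0, and at 60 min 3771.5 in Ri17 and 761.5 in Col-0. An NPR1-like gene rose by 2.64 ± 0.35 at 30 min (adjusted p = 0.00228) and by 2.29 ± 0.35 at 60 min after wounding (adjusted p = 0.00286), and by 1.08 ± 0.35 at 4 h of MeJA (adjusted p = 0.0456). Another NPR1-like gene fell by 1.03 ± 0.22 at 1 h of MeJA (adjusted p = 0.0111). A TGACG-binding factor rose by 0.71 ± 0.18 at 1 h of MeJA (adjusted p = 0.0234) and by 0.77 ± 0.18 at 60 min after wounding (adjusted p = 0.0183), and the other such factor fell by 1.03 ± 0.29 at 30 min after wounding (adjusted p = 0.0467). NPR1 itself and *WRKY70* were not analysed here.

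*PR2*, a β-1,3-glucanase that breaks down glucans of fungal cell walls, is a standard marker of salicylate responses. In Ri17 its signal was 7831.3 untreated, 6.9 at 1 h and 28.7 at 4 h of MeJA, both Absent. In Col-0 it was 10559.8 untreated, 43.4 at 1 h and 47.7 at 4 h, both Absent. *PR2* thus left detection in both genotypes at both times, and the fall was at least 7.81 on the log2 scale at 1 h (adjusted p = 1.35e-04) and at least 7.74 at 4 h (adjusted p = 8.69e-05), with 1 array at each time under the floor. After wounding it had 21624.8 at 30 min and 22918.5 at 60 min in Ri17, against 7831.3 untreated, and 7480.4 and 9917.4 in Col-0, against 10559.8 untreated. Both wounded Ri17 arrays lay above, and both wounded Col-0 arrays within or below, the range of the untreated arrays, and the averages of 0.48 ± 0.52 at 30 min (adjusted p = 0.576) and 0.73 ± 0.52 at 60 min (adjusted p = 0.347) were not called.

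Of the 2 other tested probe sets for pathogenesis-related proteins, 1 described as PR-1-like was lowered in the same way. It had 1405.8 untreated, 50.6 with an Absent call at 1 h and 83.4 with an Absent call at 4 h of MeJA in Ri17. In Col-0 it had 7431.6 untreated, 86.5 at 1 h and 52.2 with an Absent call at 4 h. It fell by 5.61 ± 0.89 at 1 h (adjusted p = 0.00357) and by at least 5.61 at 4 h (adjusted p = 0.00282), although the untreated Ri17 array lay well below the untreated Col-0 array. After wounding it had 4536.9 at 30 min and 18795.4 at 60 min in Ri17, and 3008 and 4817.9 in Col-0, and was not called at either time. The thaumatin-like PR-5 probe set was not called in any treatment contrast. These and the other probe sets named by what they are described as were picked from deposited descriptions when part of their values was known.

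*BSMT1* (AT3G11480) encodes a methyltransferase that turns salicylate and benzoate into volatile methyl esters. It was Absent on both untreated arrays, at 10.3 in Ri17 and 5.8 in Col-0. Under MeJA it had 4007.3 at 1 h and 1507.4 at 4 h in Ri17, and 3926.7 and 3162.5 in Col-0. *BSMT1* thus became detected in both genotypes, at nearly the same signal at 1 h, and rose by at least 6.72 at 1 h (adjusted p = 9.48e-05) and by at least 5.86 at 4 h (adjusted p = 7.07e-05). These are at least 105-fold and 57.9-fold. The bound at 4 h was 5.21 without the Col-0 array and 6.51 without the Ri17 array of that time.

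Wounding raised *BSMT1* at 60 min. At 30 min it was 45.6 with a Present call in Ri17 and 2.8 with an Absent call in Col-0, and at 60 min it was 495.7 in Ri17 and 321.2 in Col-0, Present on both. At 60 min both arrays lay above both untreated arrays, and *BSMT1* rose by at least 3.40 (adjusted p = 6.60e-04), or at least 10.6-fold. At 30 min the fitted difference was 0.14 with 1 wounded and both untreated arrays under the floor (adjusted p = 0.842). With no floor, which takes signals near 0 as measured, the values were 8.14 at 4 h of MeJA and 5.69 at 60 min after wounding.

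Of 8 further probe sets described as salicylate carboxyl methyltransferase-like, 4 passed the detection filter and none was called in any of the 4 treatment contrasts. Of these, 1 was Present on both arrays at 1 h of MeJA, at 47.4 in Ri17 and 88.3 in Col-0, against 3.6 in untreated Ri17 and 1.7 in untreated Col-0, and was Absent on all other arrays. Its difference at 1 h was at least 0.78 (adjusted p = 0.0608). Another 2 were also Absent untreated and Present on both arrays at 1 h of MeJA. In Ri17 they had 51.4 and 66.8 at 1 h, against 3.7 and 49.3 untreated. In Col-0 they had 24.4 and 35.5, under the floor, against 25.5 and 23.4 untreated. Their fitted differences at 1 h were 0.22 and 0.22 (adjusted p = 0.412 and 0.57). The glucosyltransferase gene *UGT76B1*, whose product acts on salicylate and isoleucic acid, was Absent on both untreated arrays and rose by at least 4.14 at 4 h of MeJA (adjusted p = 3.63e-05). It was Present on 3 arrays, those of 4 h of MeJA and Ri17 at 60 min after wounding, and passed the filter through them. It had 820.2 in Ri17 and 558.4 in Col-0 at 4 h, against 19.4 and 11.6, both Absent, at 1 h. It was higher at 4 h than at 1 h by at least 4.17 (adjusted p = 4.49e-04), whereas *BSMT1* was already at its highest signal at 1 h in both genotypes. *UGT74F1* was Absent on all 10 arrays. *SARD4* (AT5G52810), of pipecolate synthesis, fell by 1.82 ± 0.37 at 1 h of MeJA (adjusted p = 0.00937) and by 1.45 ± 0.37 at 30 min after wounding (adjusted p = 0.0317). At 4 h of MeJA it was at 0.01 ± 0.37 (adjusted p = 0.996), higher than at 1 h by 1.83 ± 0.37 (adjusted p = 0.019).

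**Figure D2:**
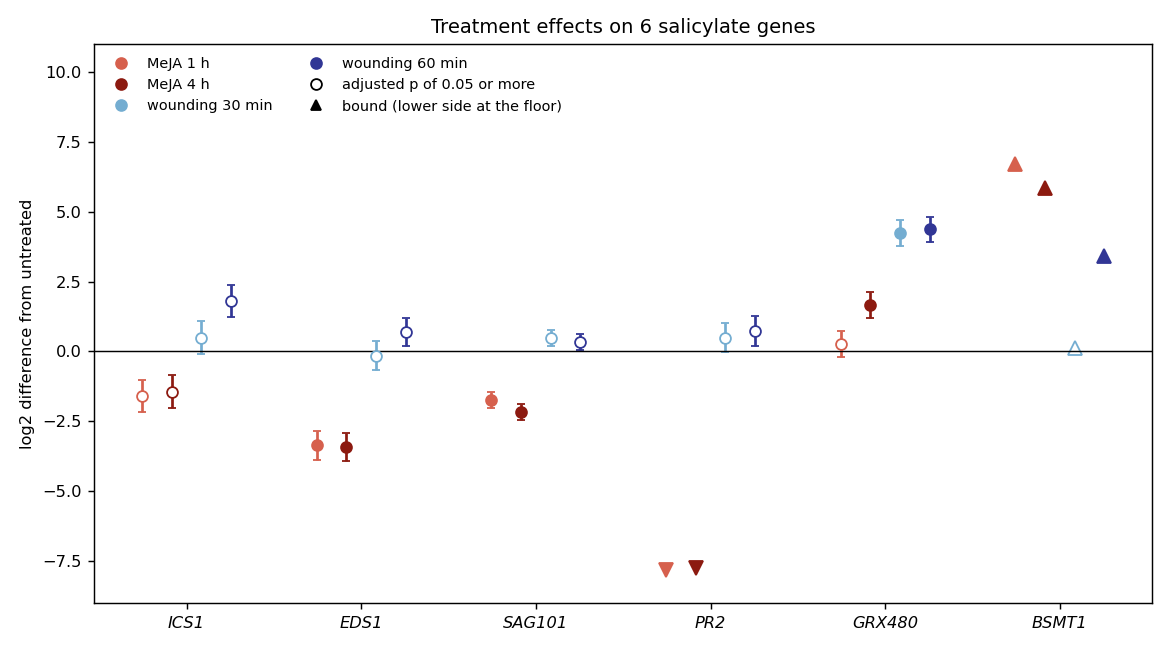
Log2 difference from untreated for the 6 genes at 1 h and 4 h of MeJA and at 30 min and 60 min after wounding, averaged over both genotypes; bars are standard errors, triangles are bounds for genes at the floor on the lower side, and open symbols have an adjusted p of 0.05 or more. *PR2* fell by at least 7.81 and *BSMT1* rose by at least 6.72 at 1 h of MeJA, and *GRX480* rose by 4.23 at 30 min after wounding.

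Over the 23 other tested probe sets of the pathway, 1 was called higher and 6 lower at 1 h of MeJA, beside 15.7% and 15.8% of all probe sets, and 2 higher and 5 lower at 4 h, beside 18.8% and 18.7%. After wounding 2 were called in each direction at 30 min, beside 9.63% higher and 10.5% lower, and 2 higher and 1 lower at 60 min, beside 12.1% and 16.1%. Their medians were -0.29 and -0.26 at 1 h and 4 h of MeJA and -0.16 and 0.00 at 30 min and 60 min after wounding. The pathway list held 65 genes. Through the annotation 9 of them had a probe set, 3 of the 6 genes described here included, and 27 probe sets, with the other 3 included, were named from deposited descriptions.

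**Figure D3:**
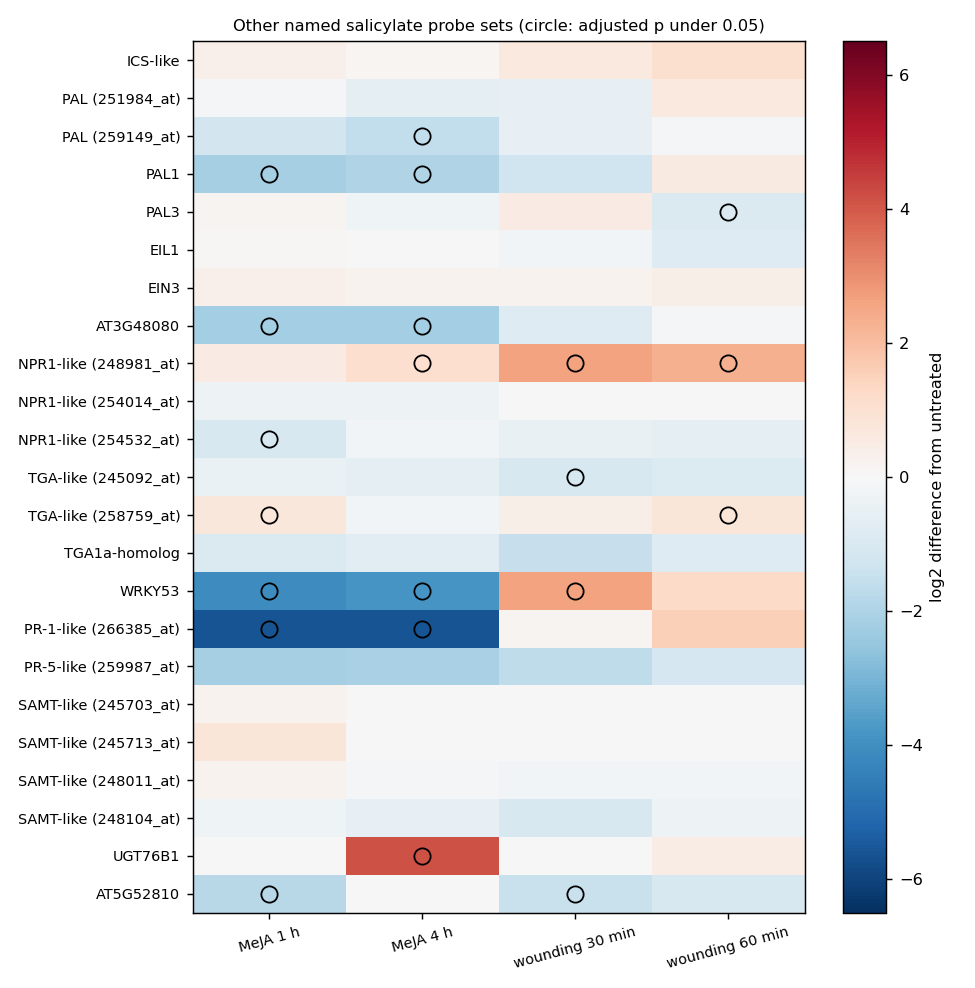
Log2 difference from untreated (colour) for the 23 other tested probe sets of the salicylate pathway, in rows, at 1 h and 4 h of MeJA and at 30 min and 60 min after wounding, in columns; circles mark an adjusted p under 0.05. The PR-1-like probe set and *WRKY53* were the lowest under MeJA, and *UGT76B1* was the highest at 4 h.

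At the time that wounding and MeJA share, 1 h, the 6 genes split into 5 that were higher after wounding and 1, *BSMT1*, that was higher under MeJA, beside 14.2% higher and 20.3% lower over all probe sets. This contrast does not use the untreated arrays, and the part of the control probe set and *PYK10* differences given above was not tested in it either. *PR2* was higher after wounding by at least 8.54 (adjusted p = 1.52e-04), *GRX480* by 4.10 ± 0.46 (adjusted p = 0.00105), *EDS1* by 4.06 ± 0.51 (adjusted p = 0.00159), *ICS1* by 3.40 ± 0.58 (adjusted p = 0.00503) and *SAG101* by 2.08 ± 0.29 (adjusted p = 0.00227). *BSMT1* was lower by 3.31 ± 0.37 (adjusted p = 0.00103), a call that did not hold with no floor (adjusted p = 0.0563). The wounded and MeJA arrays did not overlap for any of the 6, and the share of all probe sets without overlap was not counted. *ICS1* was 4.34 without the Col-0 and 2.46 without the Ri17 array at 60 min after wounding, and leaving out the Ri17 array at 1 h of MeJA ended its call (3.10, adjusted p = 0.0556). For *EDS1* the MeJA side rested on arrays that differed, and the value was 3.17 with the Ri17 one left out and 4.96 with the Col-0 one left out.

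The times of each treatment were also compared with each other. From 1 h to 4 h of MeJA none of the 6 was called, beside 6.69% higher and 7.93% lower over all probe sets. *GRX480* measured 1.39 ± 0.46 (adjusted p = 0.0902), *BSMT1* -0.86 ± 0.37 (adjusted p = 0.173) and *SAG101* -0.43 ± 0.29 (adjusted p = 0.382). For each of them the arrays of the 2 times did not overlap. The share of all probe sets without such overlap was not counted, so this is a description and no sign of a change with time. Between 30 and 60 min after wounding *BSMT1* was higher at the later time by at least 3.27 (adjusted p = 0.0104), 1 of 6 beside 2.67% higher and 1.72% lower over all probe sets. The call did not hold without the Col-0 array at 30 min (adjusted p = 0.12), the Ri17 array at 30 min (adjusted p = 0.061) or the Ri17 array at 60 min (adjusted p = 0.0806), nor with no floor (adjusted p = 0.0678), no detection filter (adjusted p = 0.0676) or wounded and untreated arrays alone (adjusted p = 0.131). *ICS1* measured 1.30 ± 0.58 over the same interval (adjusted p = 0.256).

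Set in order of its mean log2 signal, *ICS1* ran from 60 min after wounding through 30 min after wounding, untreated and 4 h of MeJA to 1 h of MeJA. *PR2* had the same order down to untreated, and its MeJA arrays, all Absent, have no order between the times. For both genes the single step at which neighbouring conditions did not overlap was that below untreated, of 1.44 to 4 h of MeJA for *ICS1* and at least 7.74 for *PR2*. *EDS1* also had its 60 min arrays above the untreated ones without overlap, by 0.70, and its 30 min arrays above those of 1 h of MeJA, by 3.21. *SAG101* was highest at 30 min after wounding, and its arrays separated between untreated and 1 h of MeJA and, by 0.43, between 1 h and 4 h of MeJA. *GRX480* ran from both wounding times, which overlapped, through 4 h of MeJA, lower by 2.56 and separate from them, to 1 h of MeJA and untreated, which overlapped each other and lay below 4 h of MeJA. *BSMT1* had the order 1 h of MeJA, 4 h of MeJA, 60 min after wounding, 30 min after wounding and untreated, with overlap between the last pair alone, where all but the Ri17 array at 30 min were under the floor. How often conditions separate in this way over all probe sets was not counted, so these orders are a description.

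The third question was whether lowering *JAV1* changed these genes. In the untreated and MeJA arrays the genotypes differed in mixed directions, whereas after wounding all 6 genes were higher in Ri17 than in Col-0 at both times. *ICS1* had the largest gap of the 6 at 60 min, and at 30 min the largest among the 5 that were above the floor in both genotypes. Averaged over the 5 conditions no gene was called: *ICS1* was higher in Ri17 by 1.13 ± 0.37 (adjusted p = 0.799, higher in 5 of 5 conditions), *GRX480* by 0.43 ± 0.29 (adjusted p = 0.819, higher in 3 of 5) and *EDS1* by 0.41 ± 0.32 (adjusted p = 0.835, higher in 4 of 5). *PR2* was at 0.35 ± 0.33 (adjusted p = 0.866), *SAG101* at 0.19 ± 0.18 (adjusted p = 0.872) and *BSMT1* at -0.03 ± 0.23 (adjusted p = 0.992). Over all probe sets 0% were called by limma in either direction, with 951 of 15382 at an unadjusted p under 0.05.

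**Figure D4:**
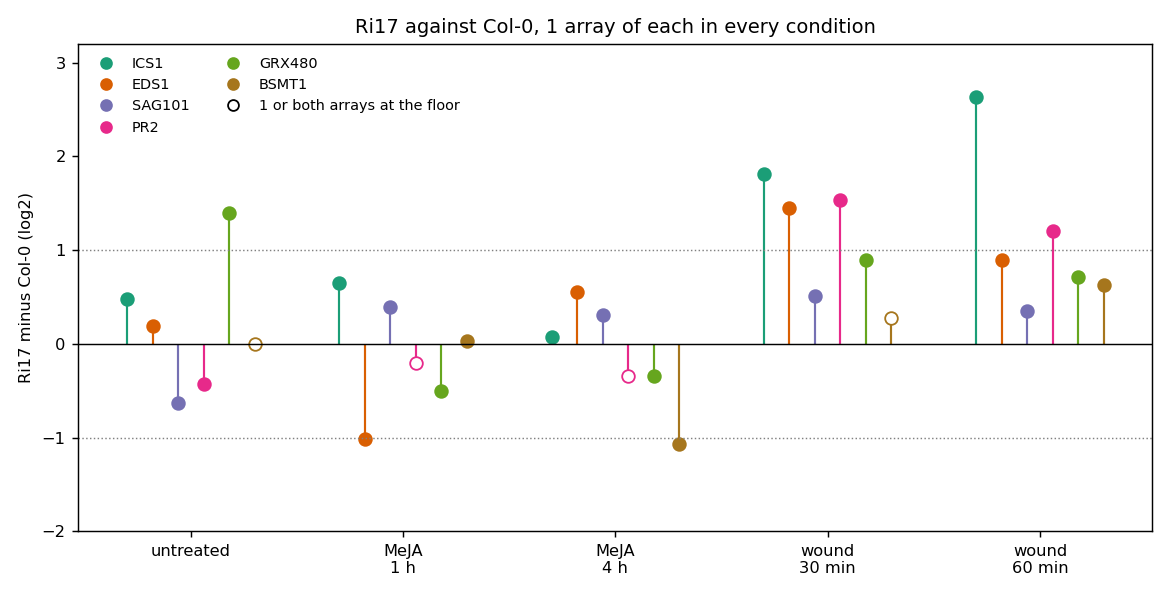
Ri17 minus Col-0 (log2 of floored signals) for the 6 genes in each condition, from 1 array of each genotype; open circles have 1 or both arrays at the floor and dotted lines mark a difference of 1. After wounding the 6 genes lie above 0 at both times, with *ICS1* at 1.82 and 2.64, and in the other conditions they lie on both sides of 0.

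At 30 min after wounding *ICS1* had 1083.5 in Ri17 and 307.7 in Col-0, a log2 difference of 1.82, and at 60 min 3551.1 in Ri17 and 571.5 in Col-0, a difference of 2.64 or 6.21-fold. *PR2* differed by 1.53 at 30 min and 1.21 at 60 min, *EDS1* by 1.45 and 0.90, *GRX480* by 0.90 and 0.72, and *SAG101* by 0.51 and 0.35. *BSMT1* differed by 0.63 at 60 min and by at least 0.27 at 30 min, where the Col-0 array was under the floor. For that gene and time the authors' deposited table gave a log2 ratio of 4.1, against 1.6 for *ICS1*. In the authors' deposited table all 6 carried an increase call at both times, beside 10.6% of the 15382 probe sets at 30 min and 13.9% at 60 min. None had a decrease call, beside 5.81% and 12.6%. The calls come from the probe pairs of 2 arrays and compare these arrays, not the genotypes. By size, 3 of 6 (*ICS1*, *EDS1* and *PR2*) were higher in Ri17 by at least 1 at 30 min, beside 2.27% of all probe sets, and 2 of 6 (*ICS1* and *PR2*) at 60 min, beside 4.54%. None was lower by that much, beside 2.23% and 3.29%. The median over the 6 was 1.17 at 30 min and 0.81 at 60 min, beside -0.03 and -0.04 over all probe sets.

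Untreated, *GRX480* was higher in Ri17, at 357.4 against 136.2 in Col-0, the only 1 of the 6 to differ by at least 1, beside 3.13% of probe sets higher and 2.43% lower. The authors' deposited table gave increase calls to *GRX480* and *ICS1* (2 of 6, beside 12.4%) and a decrease call to *PR2* (1 of 6, beside 13.6%). At 1 h of MeJA *EDS1* was lower in Ri17 by 1.01, with its Ri17 array Absent, 1 of 6 beside 0.345% of probe sets lower, and had no change call in the authors' deposited table, while *BSMT1* had a decrease call there (1 of 6, beside 3.17%) at nearly equal signals. At 4 h *BSMT1* was lower in Ri17 by 1.07, 1 of 6 beside 0.8%, and *BSMT1* and *GRX480* had decrease calls in the authors' deposited table (2 of 6, beside 4.93%). None of the 6 was higher in Ri17 by at least 1 under MeJA, beside 0.8% at 1 h and 0.904% at 4 h, and none had an increase call, beside 6.12% and 7.55%. The medians over the 6 were 0.09 untreated, -0.09 at 1 h and -0.13 at 4 h of MeJA, beside 0.00, 0.03 and 0.00 over all probe sets.

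Because the genotypes parted after wounding, their difference was also fitted apart in the 2 wounded pairs of arrays and the 3 other pairs, a choice made after the data had been seen. The split follows the pattern seen in these same arrays, so the errors and p-values below describe it and do not test it. In the wounded pairs *ICS1* was higher in Ri17 by 2.23 ± 0.26 (adjusted p = 0.0741), *PR2* by 1.37 ± 0.18 (adjusted p = 0.0992) and *EDS1* by 1.17 ± 0.38 (adjusted p = 0.282). *GRX480* was at 0.81, *BSMT1* at 0.45 and *SAG101* at 0.43, and none of the 6 passed. In the other pairs *ICS1* was at 0.40 ± 0.21, *PR2* at -0.32 ± 0.15 and *EDS1* at -0.09 ± 0.31. The difference between both kinds of pairs was 1.82 ± 0.34 for *ICS1* (adjusted p = 0.312), 1.69 ± 0.23 for *PR2* (adjusted p = 0.204) and 1.26 ± 0.49 for *EDS1* (adjusted p = 0.534). No probe set was called in these contrasts (0%). Of the 15382 probe sets, 2072 in the wounded pairs, 505 in the others and 1366 for the difference had an unadjusted p under 0.05. A share of 0.05 would do so with no effect present, and these counts are a description of the same split.

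Among the 23 other probe sets of the pathway, the authors' deposited table gave increase calls to 5 at 30 min and 8 at 60 min after wounding, beside 10.6% and 13.9% of all probe sets, and decrease calls to 1 and 2, beside 5.81% and 12.6%. The 5 at 30 min were *EDS1B*, *SARD4*, the PR-1-like and PR-5 probe sets and the TGACG-binding factor that rose at 1 h of MeJA. At 60 min *WRKY53* was 4.95-fold higher in Ri17, at 3771.5 against 761.5 in Col-0, the PR-1-like probe set 3.90-fold, at 18795.4 against 4817.9, and *EDS1B* 3.57-fold, at 319.2 against 89.3. *SARD4* was at 737.6 in Ri17 against 259.5 in Col-0 at 60 min. The putative isochorismate synthase lay the other way at 60 min, at 77.1 in Ri17 against 154.2 in Col-0. The authors' deposited table gave it a log2 ratio of -0.3 and no change call there. Untreated, the PR-1-like probe set was 5.29-fold lower in Ri17, at 1405.8 against 7431.6 in Col-0, and in the same comparison *PR2* was 1.35-fold lower.

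For each of the 6 genes the named genes with the most similar pattern were found by Pearson's r of the floored log2 signal over the 10 arrays, among 8443 compared probe sets with 1 gene. These values share the same arrays. The step between MeJA and other arrays weighs in them, or for *GRX480* that between wounded and other arrays, so they are given as a description. Nearest to *ICS1* were AT4G18250, described as a receptor kinase like PR5K (r = 0.966), and AT3G14470, described as a putative disease resistance protein (r = 0.958). *EDS1* ran closest with AT1G66880, a putative protein kinase (r = 0.990). AT1G10340 was nearest to *SAG101* (r = 0.991) and came second for *PR2* (r = 0.992), behind AT5G48540, described as like a 33 kDa secretory protein (r = 0.995). *GRX480* ran closest with AT1G19020 (r = 0.978), and *BSMT1* with *LHW* (r = 0.966).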

How the data were processed

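Leaf RNA of Ri17 and Col-0 was measured on 10 single-colour arrays, 1 per genotype and condition, each taken as 1 sample of its group. The deposited intensity values were made by the authors with GCOS, per the submitters' processing notes, in no stated version, and after leaving out the top and bottom 2% of signals an array averaged 500.05 to 500.06. The deposited detection and change calls, log2 ratios and change p-values of Ri17 over Col-0 are the authors' own, per the file headers. A small change p-value marks an increase, and one close to 1 a decrease. The genome build is not given in the sources used here, and no coordinates are printed.

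Signals were floored at 37.7, and log2 values of the 15382 probe sets with a Present call on 2 or more arrays, without the 64 controls, were fitted with limma 3.58.1 in R 4.3.3 (genotype plus condition, 4 residual degrees of freedom, two-sided, Benjamini-Hochberg adjustment over all 15382). The steps were tested on simulated data. *SAG101*, *GRX480* and *BSMT1* were named from the platform annotation, which gave 1 gene for 13513 probe sets, several for 503 and none for 8794. Of those with 1 gene, 13436 matched TAIR10.1. *ICS1*, *EDS1* and *PR2* were named from deposited descriptions. Of the pathway list, genes called in a contrast were named, and for each of the 6 genes the 3 most similar were found, of which 1 or 2 are printed. The 6 genes and all lists were chosen with earlier results of these data known, and probe sets named by description after part of their values had been seen.

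Alternatives were median centring, quantile normalisation, 3 other floors, 2 other detection filters, trended and robust variance, subsets of conditions, leaving out each array, and, chosen after seeing the data, the genotype effect fitted apart in wounded arrays. Python 3.11.15, pandas 2.3.3, NumPy 2.4.6 and Matplotlib 3.10.9 were used for single-array values and plots.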

Additional observations from a re-analysis of the deposited data

Results flagged for a closer look

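Among the genes described here, over both treatments and both times of each, the arrays of the 2 genotypes moved in opposite directions from untreated in 7 cases. The share of all probe sets with opposite directions was not counted, so these cases are a description and no sign of a response particular to 1 genotype. Several of them rest on small Col-0 responses, from -0.09 to -0.17. Each response is 1 array minus 1 array, and the difference between the genotypes was not tested by itself. Given as the Ri17 response minus the Col-0 response on the log2 scale, it was 1.33 for *ICS1* at 30 min after wounding (1.16 in Ri17, -0.17 in Col-0) and 1.26 for *EDS1* at 30 min (0.48 in Ri17, -0.78 in Col-0). For *SAG101* it was 1.14 at 30 min (1.04 in Ri17, -0.11 in Col-0) and 0.98 at 60 min (0.84 in Ri17, -0.14 in Col-0). For *PR2* it was 1.96 at 30 min (1.47 in Ri17, -0.50 in Col-0) and 1.64 at 60 min (1.55 in Ri17, -0.09 in Col-0). For *GRX480* at 1 h of MeJA it was -1.89 (-0.68 in Ri17, 1.22 in Col-0), where the untreated signal was 357.4 in Ri17 and 136.2 in Col-0.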

How the results depend on the processing

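Of 948 recomputed log2 differences of the 6 genes over 8 contrasts, 901 kept their direction and their side of the threshold, 13 lost a call, 9 gained one and 25 changed sign. The calls of *EDS1*, *SAG101*, *PR2* and *BSMT1* under MeJA and of *GRX480* after wounding held under every alternative run. None of the sign changes was in a called value. Without a replicate in turn, the values that changed sign ranged from -0.33 to 0.87 for *GRX480* at 1 h of MeJA, from -0.80 to 0.49 for *EDS1*, -0.045 to 0.98 for *SAG101*, -0.25 to 1.22 for *PR2* and -0.052 to 0.33 for *BSMT1* at 30 min after wounding, and from -0.16 to 0.86 for *SAG101* at 60 min. Between 1 h and 4 h of MeJA they ranged from -0.50 to 0.82 for *ICS1*, -0.95 to 0.83 for *EDS1* and -0.36 to 0.50 for *PR2* (0.00 with the floor at 60.9). Between 30 and 60 min they ranged from -0.32 to 0.088 for *SAG101*, -0.49 to 0.98 for *PR2* and -0.15 to 0.43 for *GRX480*. For Ri17 minus Col-0 *BSMT1* ranged from -0.19 to 0.23, and was 0.19 with the floor at 17.7 and 0.89 with no floor, while *PR2* was -0.22 with no floor. Leaving out each array gave 4 to 5 of the 6 genes called at 1 h and 4 to 6 at 4 h of MeJA, 1 to 2 at 30 min and 2 to 3 at 60 min after wounding, 0 to 1 between 30 and 60 min, and 5 to 6 for wounding against MeJA at 1 h. Between 30 and 60 min 0 of the 6 were called with no floor, with no detection filter or with wounded and untreated arrays alone. Over all probe sets, leaving out each array gave 2467 to 4911 calls at 1 h of MeJA (4840 with all arrays), 3149 to 5828 at 4 h (5769), 1452 to 3143 at 30 min (3098) and 2781 to 3922 at 60 min after wounding (4341), 224 to 2516 between the MeJA times (2249), 0 to 673 between the wounding times (676) and 2083 to 5733 for wounding against MeJA (5304). Wounded and untreated arrays alone gave 1467 calls at 30 min, 2628 at 60 min and 0 between the wounding times, which had 190 with no floor, 399 with Present on at least 1 array and 161 with no detection filter. Between the MeJA times no detection filter gave 1198 and MeJA and untreated arrays alone 1419. The cause of these changes was not tested beyond the smaller number of arrays in some fits. *PR2* under MeJA and untreated *BSMT1* lay near or under the floor, so their differences are bounds. No paired analysis was possible because each group holds 1 array, beyond the pairing of the genotypes within a condition that the additive fit already makes.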
